A study of Mus musculus with 5 samples.

Results

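H2AK119ub, a single ubiquitin attached to histone H2A by Polycomb repressive complex 1, was compared between wild-type and DDX5 knockout mouse embryonic stem cells through the peak positions of 1 ChIP-seq library a side. All peaks of both H2AK119ub libraries on the autosomes other than 6 and 8 were taken, which came to 37665 of the 54793 peaks in the 3 peak lists of the series. The series holds 5 samples. The other lists and libraries are RYBP in the wild type, used below as a second readout, and 1 input library of each genotype, not analysed here. With 1 library a side, differences between the genotypes have no replicate check and no p-values.

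The wild type was the mouse embryonic stem cell line MPI-II. The knockout was derived from it with a Cas9 nickase and paired guides against the second exon of Ddx5, and the labels describe the knockout as monoclonal, so it stands for a single clone. Both genotypes grew on feeder cells in 15% serum with 1000 U/ml LIF, 1 μM of the MEK inhibitor PD0325901 and 3 μM of the GSK3 inhibitor CH99021. How much feeder chromatin entered either library is not known. Sequencing depth is unknown for both libraries. The part of depth and of antibody enrichment in a narrower or missing peak cannot be told apart from that of the genotype.

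Polycomb repressive complex 1 carries a RING1 ubiquitin ligase that modifies H2A near its C-terminal tail. Its variant forms contain RYBP or YAF2, and RYBP also binds the mark it helps to place, which is thought to let a domain spread. In embryonic stem cells the mark is densest over CpG-rich starts of silent developmental regulators, and it lies thinly over much of the rest of the genome. DDX5 is a DEAD-box RNA helicase known mainly for roles in splicing, transcription and microRNA processing.

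Promoters of 6 genes are shown because the peak lists of the genotypes differed over them. Each is the RefSeq window of 300 bases from 250 before to 50 after the gene's start, in GRCm38.p6 (mm10), written 5′ to 3′ on the gene's strand with each CG in capitals. Vegfa and Prr22 lay under a wild-type peak alone, Pnpla5, Asic2 and Pmp22 under a knockout peak alone, and Bdkrb2 in part under a wild-type peak alone.
Vegfa (chr17:46032328-46032627, minus strand): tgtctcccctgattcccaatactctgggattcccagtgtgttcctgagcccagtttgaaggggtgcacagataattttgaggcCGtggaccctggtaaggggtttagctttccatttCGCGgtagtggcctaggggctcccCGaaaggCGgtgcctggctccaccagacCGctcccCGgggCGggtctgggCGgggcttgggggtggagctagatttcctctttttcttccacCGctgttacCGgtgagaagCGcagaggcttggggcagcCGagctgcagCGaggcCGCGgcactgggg
Prr22 (chr17:56770026-56770325, plus strand): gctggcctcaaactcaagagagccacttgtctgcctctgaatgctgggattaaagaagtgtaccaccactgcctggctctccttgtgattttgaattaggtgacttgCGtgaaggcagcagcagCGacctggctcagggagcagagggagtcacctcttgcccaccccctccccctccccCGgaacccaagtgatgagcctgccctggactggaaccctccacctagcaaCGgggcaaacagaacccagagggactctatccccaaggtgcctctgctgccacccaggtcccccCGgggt
Pnpla5 (chr15:84123126-84123425, minus strand): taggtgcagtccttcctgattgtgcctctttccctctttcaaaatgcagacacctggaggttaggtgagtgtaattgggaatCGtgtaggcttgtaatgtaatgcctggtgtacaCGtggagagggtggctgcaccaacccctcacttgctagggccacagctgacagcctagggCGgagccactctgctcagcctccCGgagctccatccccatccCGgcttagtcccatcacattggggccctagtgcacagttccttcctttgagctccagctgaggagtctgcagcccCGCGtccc
Asic2 (chr11:81968347-81968646, minus strand): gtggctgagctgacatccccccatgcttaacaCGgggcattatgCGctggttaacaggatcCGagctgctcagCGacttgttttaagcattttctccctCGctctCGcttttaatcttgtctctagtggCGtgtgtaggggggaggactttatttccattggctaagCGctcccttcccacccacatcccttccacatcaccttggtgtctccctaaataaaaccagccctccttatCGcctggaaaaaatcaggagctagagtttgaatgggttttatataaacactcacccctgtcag
Bdkrb2 (chr12:105562922-105563221, plus strand): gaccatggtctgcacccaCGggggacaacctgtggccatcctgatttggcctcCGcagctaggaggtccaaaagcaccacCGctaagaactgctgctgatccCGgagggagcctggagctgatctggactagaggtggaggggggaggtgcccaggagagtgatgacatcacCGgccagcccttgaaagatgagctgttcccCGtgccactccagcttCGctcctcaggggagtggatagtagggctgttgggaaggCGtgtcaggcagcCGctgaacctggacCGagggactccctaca
Pmp22 (chr11:63128732-63129031, plus strand): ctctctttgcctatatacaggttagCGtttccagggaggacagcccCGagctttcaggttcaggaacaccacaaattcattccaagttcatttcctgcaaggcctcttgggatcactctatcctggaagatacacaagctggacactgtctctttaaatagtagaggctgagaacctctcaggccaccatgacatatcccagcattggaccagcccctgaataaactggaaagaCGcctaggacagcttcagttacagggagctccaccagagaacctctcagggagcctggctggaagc
The window at Vegfa held 16 CGs and had 62.0% GC, and its CpG observed over expected ratio, the number of CGs relative to that expected from its C and G content, was 0.56. The ratio was 0.50 at Asic2, 0.35 at Bdkrb2, 0.29 at Pnpla5, 0.19 at Prr22 and 0.16 at Pmp22, against a median of 0.57 over 11378 promoters. At least 1 CG was found in 94.1% of those promoters. Among these 6 picked windows, the lowest density of CGs was at Prr22 under a wild-type domain and at Pmp22 under a knockout domain. So few picked windows do not describe either side as a whole.

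The wild-type list held 20521 peaks over 36.8 Mb and the knockout list 17144 peaks over 23.1 Mb, a ratio of covered length of 0.63. Median widths were 1316 and 1017 bp, and the widest peaks measured 39824 and 20839 bp. A knockout counterpart, meaning a peak with shared bases, was found for 47.5% of wild-type peaks (Wilson 95% interval 46.8 to 48.2), and a wild-type counterpart for 66.9% of knockout peaks (66.2 to 67.6). These and all other intervals below are Wilson 95% intervals that cover counting error only and treat genes or peaks as independent.

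A protein-coding gene counted as marked if at least 1 bp within 2 kb of its start, up or downstream, lay under a peak. For the 3716 of 18496 genes whose strand is not listed, windows at both gene ends were used, so that up to 8000 bp and not 4000 bp were searched. Lengths given below for such genes refer to both ends. Among them are Foxh1, Amh, Fzd8, Chrm1, Dgat1, Osm, Cd14, Cd300lg, Cd79b, H2-Ab1, Ddx23, Rad50 and Hdac3. In the wild type 3873 genes were marked, 20.9% of those tested. Of these, 2685 were marked in the knockout too, which is 69.3% (67.9 to 70.8). The wild type alone marked 1188 genes, 6.42% of all tested, and the knockout alone marked 506, 2.74% of all tested. Genes with the mark in the wild type alone thus outnumbered the reverse by 2.35 to 1. With peaks of at least 1 kb alone the counts were 1255 and 235. Among genes marked in both, the covered length in the knockout was at most 0.5 times that of the wild type at 479 genes (17.8%) and at least 2 times at 81 (3.02%), with a median ratio of 0.82.

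Most genes marked on 1 side had only peaks without a counterpart in their window. The class itself requires that no base of the window lies under a peak of the other library. A counterpart was therefore possible only for peaks that reached past the window, and the shares do not set missing peaks against shifted edges. At 1114 of the 1188 genes of the wild type alone (93.8%, 92.3 to 95.01), every wild-type peak in the window lacked an overlapping knockout peak anywhere along its length. The same held for 493 of the 506 genes of the knockout alone (97.4%, 95.7 to 98.5).

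The 9 lists of classic developmental regulators (Hox and other homeobox, forkhead, Sox and T-box, helix-loop-helix and zinc finger lineage factors, and the Wnt, FGF, hedgehog, Notch, TGF-beta and BMP genes) had 505 members tested. The wild type marked 364 of them, of which 339 were marked in the knockout (93.1%, 90.1 to 95.3). Outside these lists the wild type marked 3509 of 17991 genes, and 2346 were marked in the knockout (66.9%, 65.3 to 68.4). Of the 1188 genes of the wild type alone, 25 were developmental, 2.10% beside 2.73% of all genes. With windows of 1 kb this share was 3.37% and with peaks of at least 1 kb 2.79%, both above the share of all genes. Only wild-type-marked genes could enter this class, however, and 364 of the 3873 such genes were developmental. Relative to that base, developmental genes were the less frequent among the 1188. Of the 506 genes of the knockout alone, 495 lay outside the lists. The 25 included Foxh1 (wild type 3757 bp), a partner of SMADs in nodal signalling, Amh (3391 bp), the anti-Müllerian hormone, and Meis1 (2075 bp), a Hox cofactor. The 11 of the knockout alone included Id3 (2132 bp), an inhibitor of helix-loop-helix factors, Jag1 (1779 bp), a Notch ligand, and Fzd8 (1311 bp), a Wnt receptor. At Foxh1, Amh and Fzd8 both gene ends were searched, so their cover need not lie at the start.

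Developmental genes had more of the window covered in the wild type, with a median of 3284 bp against 1739 bp outside the lists. Both medians mix 2 kinds of window. Marked genes without a listed strand, searched at both ends, had a median of 2272.5 bp, and those with a listed strand 1727 bp. The part of the longer windows in the difference was not tested. Because cover differed, retention was read within 4 classes of equal size by covered length, which also mix both kinds of window. In the class with the least wild-type cover, 22 of 32 developmental genes were marked in the knockout (68.8%, 51.4 to 82.0) against 348 of 940 outside (37.0%, 34.0 to 40.2). In the second class the shares were 77.6% (64.1 to 87.0) and 59.3% (56.1 to 62.5), in the third 97.6% (91.5 to 99.3) and 81.9% (79.2 to 84.3), and in the fourth 99.0% (96.45 to 99.7) and 95.05% (93.3 to 96.37). Retention was higher for developmental genes in each class, and the intervals of the 2 groups did not overlap in any of the 4, although in the fourth they nearly touched. Read from the other side, 96.9% of the 350 developmental genes marked in the knockout were marked in the wild type (94.5 to 98.2), and 82.6% of the 2841 outside (81.1 to 83.9). That share also increased with the length covered in the knockout, from 60.2% to 99.4% across the 4 classes outside the lists. In this reading the intervals of developmental and other genes overlapped in 3 of the 4 classes, all but the second (84.9 to 98.7 against 77.6 to 83.3).

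**Figure D1:**
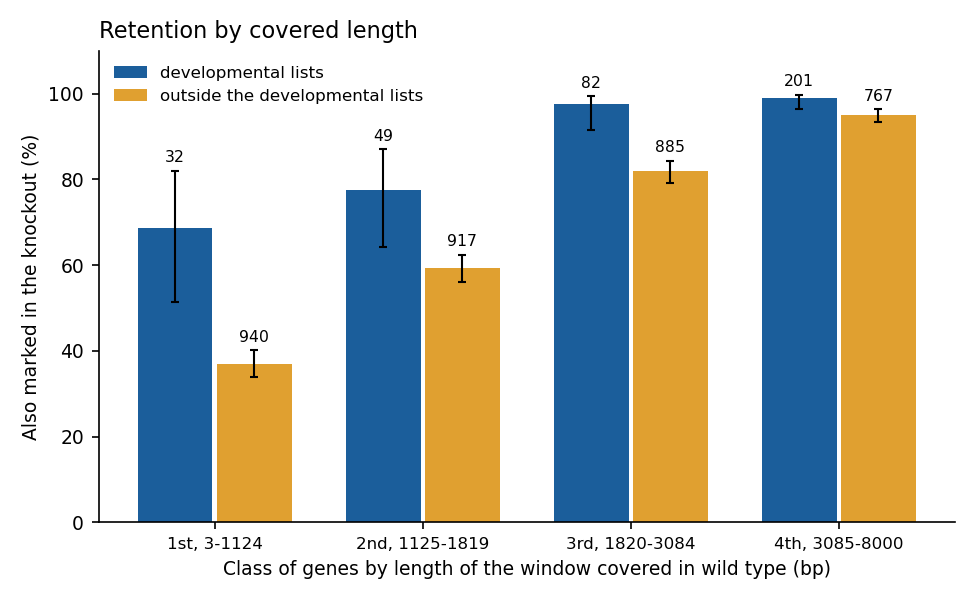
Percentage of wild-type-marked genes also marked in the knockout (y axis) in 4 classes of equal size by the length of the gene window covered in the wild type (x axis, bp; ranges are those of genes outside the lists), for developmental lists (blue) and all other genes (orange). Bars are shares, lines are Wilson 95% intervals and numbers are genes marked in the wild type; shares run from 68.8% to 99.0% in blue and from 37.0% to 95.05% in orange.

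Of 52 gene families defined by symbol, all 27 wild-type-marked Hox genes were marked in the knockout. Among the 43 families outside the developmental lists, several of those used by neurons stood high. Potassium channels, which set resting and firing properties of excitable cells, were marked in the knockout at 42 of 47 genes (89.4%, with 57.3% of its 82 members marked in the wild type). Axon guidance genes, which include semaphorins, ephrins, netrins, slits and their receptors, were marked at 38 of 41 (92.7%). Synaptic vesicle and scaffold genes were marked at 38 of 45 (84.4%), calcium and sodium channels at 19 of 23 (82.6%) and neurotransmitter receptors at 47 of 62 (75.8%). The kinesins, myosins and cytoskeletal regulators kept 32 of 35 (91.4%) and imprinted genes 14 of 15 (93.3%). All of these stood above the 69.3% of all genes, but the intervals of the neurotransmitter receptors and of the calcium and sodium channels included it.

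Within these neuronal families, losses and gains still fell on named receptors and channels. Marked in the wild type alone were Chrna3, a nicotinic receptor subunit (2857 bp), Drd2, a dopamine receptor (1795 bp), Chrm1, a muscarinic receptor (1662 bp), Kcna3, a voltage-gated potassium channel (2193 bp), and Cacng6, a calcium channel subunit (2677 bp). Marked in the knockout alone were Chrna5 (1595 bp), whose product assembles with that of Chrna3, Kcnh5, a potassium channel (1416 bp), and Sv2b, a protein of synaptic vesicles (1503 bp). Axon guidance genes had 9 members marked in the knockout alone against 3 in the wild type alone, the reverse of the order over all genes. These 9 were 12.3% of the 73 members tested, beside 2.74% of all genes, and included Sema5b (4000 bp), Sema6d (2052 bp) and Sema4d (1543 bp). The reversed order was not particular to this family. Kinesins, myosins and cytoskeletal regulators had 8 in the knockout alone (5.84% of members) against 3, and FGF, hedgehog and Notch genes 4 (9.52%) against 1.

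Families of the immune system and of lipid handling stood at the lower end. Innate and lymphoid immune genes were marked in the knockout at 25 of 47 genes (53.2%), and the median ratio of covered length among those 25 was 0.57. Lipid transport and metabolism genes were marked at 18 of 38 (47.4%), with Dgat1, which makes triglycerides (3361 bp), Apoa5, an apolipoprotein (3024 bp), and Agpat3, an acyltransferase (2679 bp), in the wild type alone. Cytokines, chemokines and their receptors were marked at 26 of 41 (63.4%, 48.1 to 76.4, which includes the share of all genes), with Osm, oncostatin M (2522 bp), in the wild type alone and Cxcr4, a chemokine receptor (1146 bp), in the knockout alone. The losses in the immune family included H2-T3 (2185 bp) of the major histocompatibility region and Cd14 (2951 bp), a receptor for bacterial lipopolysaccharide. H2-Ke6 (2959 bp), an enzyme gene of the same region, was counted there through its symbol and not an immune function. The gains included H2-Ab1 of the same region (1201 bp), Cd300lg (1613 bp) and Cd79b, a B-cell receptor subunit (1239 bp). Over all 310 innate and lymphoid genes, the wild type alone accounted for 7.10% and the knockout alone for 4.52%, beside 6.42% and 2.74% of all genes.

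Household families were seldom marked, with 86 of 957 genes marked in the wild type (8.99%), and 44 of these 86 were marked in the knockout (51.2%, 40.8 to 61.4). Splicing and RNA helicase genes, the families to which DDX5 itself belongs, were marked in the wild type at 15 of 162 genes and in the knockout at 7 of those 15 (46.7%). Ddx23, a spliceosomal helicase (2407 bp), Celf3 (1793 bp) and Sf3a2 (1459 bp) belonged to the wild type alone, and Rbm46 (1821 bp) to the knockout alone. DNA replication and repair genes kept 6 of 14 (42.9%), with Msh5 (1635 bp) and Rad21l (1498 bp) in the wild type alone and Rad50 (1198 bp) and Msh4, the meiotic partner of Msh5 (806 bp), in the knockout alone. Translation factors and tRNA synthetases kept 5 of 11 (45.5%), proteasome and chaperonin genes 8 of 14 (57.1%) and cell cycle genes 11 of 16 (68.8%). Of these families only DNA replication and repair had an interval wholly below the 69.3% of all genes (up to 67.4), and splicing reached 69.9. Of 1360 olfactory and vomeronasal receptors the wild type marked 5 and the knockout marked none of these, but 4 others.

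These family differences were read again on either side of the median wild-type cover of all marked genes (1819 bp), with families pooled after their values had been seen. Median covers at or below it were 1110 bp for neuronal, 946.5 bp for immune and lipid and 1081 bp for household genes. Above it they were 3153, 2888 and 2966 bp, so covered length was only roughly matched. Among genes at or below the median wild-type cover, where 49.1% of all genes were marked in the knockout (46.9 to 51.3), the share was 66.7% for the neuronal families (56.2 to 75.7, 58 of 87). It was 31.2% for immune and lipid genes (21.2 to 43.4, 20 of 64) and 30.2% for the household families (19.5 to 43.5, 16 of 53). Above the median, where all genes stood at 89.6% (88.1 to 90.8), the shares were 96.2% (91.4 to 98.4), 79.0% (67.4 to 87.3) and 84.8% (69.1 to 93.3). Neuronal genes stood above immune and lipid genes on both sides of the median. The pools were made from families already seen to stand high or low, so this order is no independent support. Cadherins and protocadherins, which kept 68.3%, were not in the neuronal pool. The interval of the household genes lay apart from that of all genes below the median alone. Of the 1188 genes of the wild type alone, 750 belonged to no family, as did 302 of the 506 of the knockout alone.

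**Figure D2:**
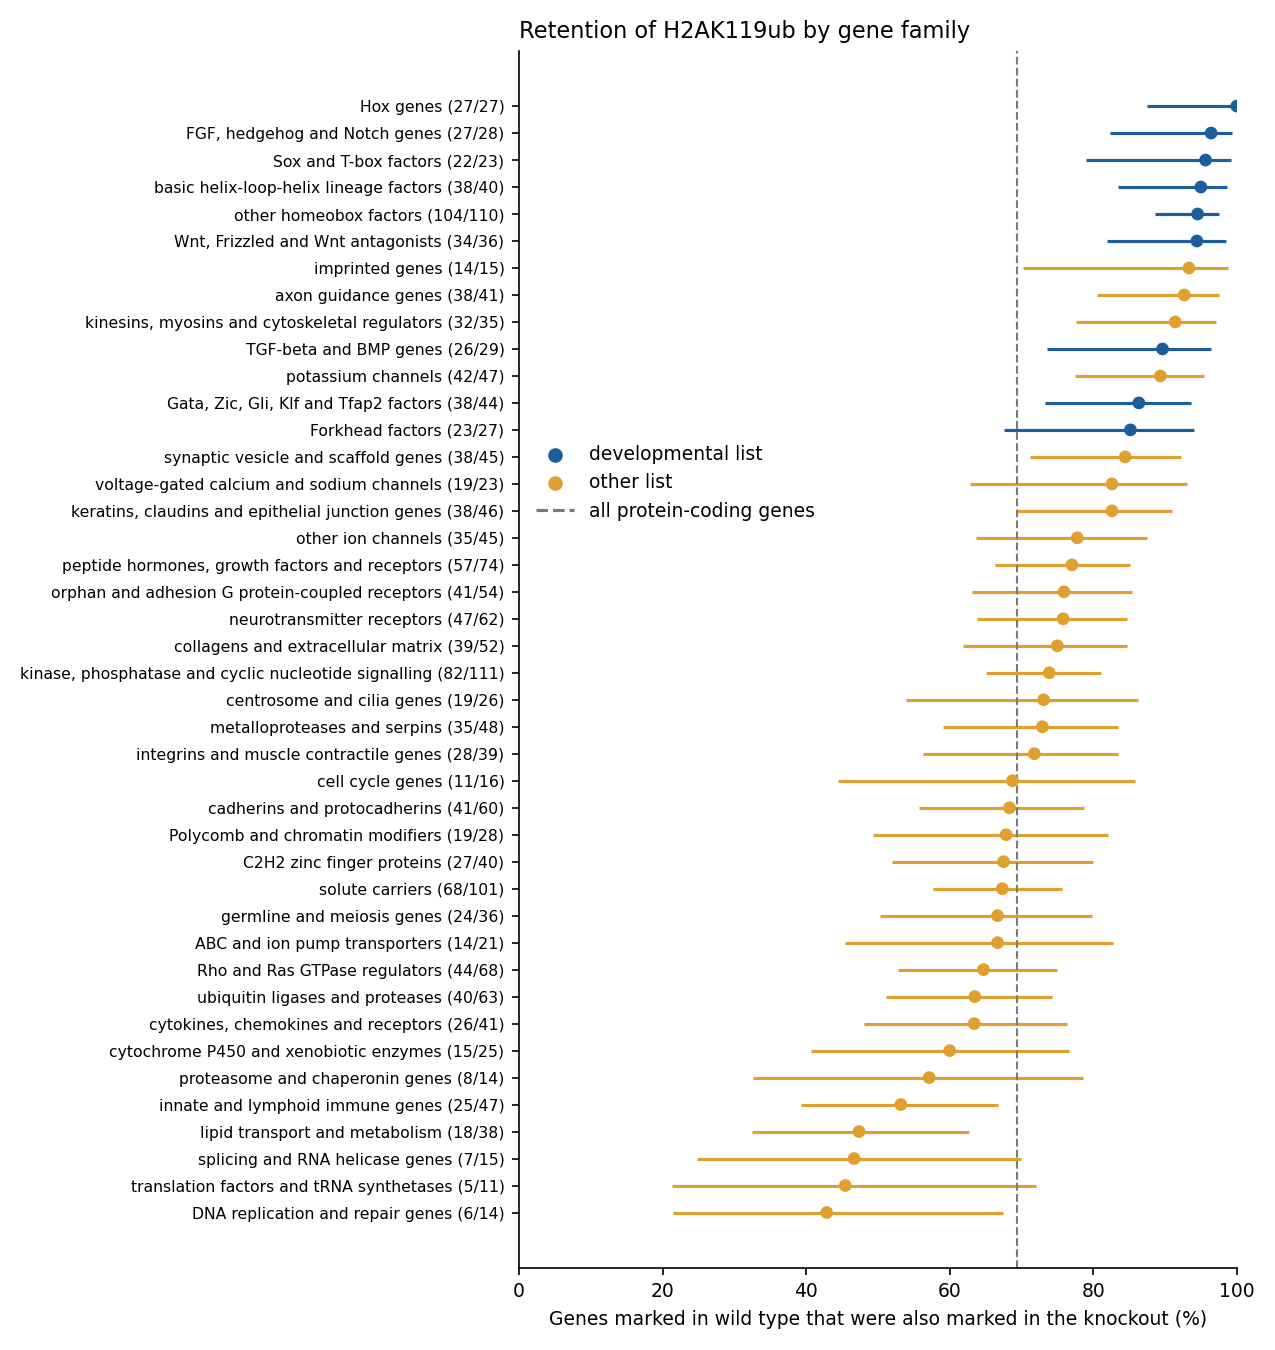
Percentage of the wild-type-marked members of each gene family that were also marked in the knockout (x axis), for families with at least 10 marked members, with counts in parentheses. Points are shares, lines Wilson 95% intervals, blue developmental and orange other families, and the dashed line the 69.3% of all genes; axon guidance, potassium channel and cytoskeletal genes lie among the developmental lists, and lipid and immune genes lie to the left.

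Chromatin modifiers themselves were near the background, with 19 of 28 marked in both (67.9%). Ehmt2, a histone H3 lysine 9 methyltransferase (1528 bp), Hdac3, a deacetylase (1209 bp), and Phf1, a Polycomb accessory protein (1152 bp), belonged to the wild type alone. Kdm2b, whose product recruits a variant Polycomb complex to unmethylated CpG islands, was marked in the knockout alone (1141 bp) and carried RYBP in the wild type over 1807 bp. Ddx5 itself (gene ID 13207, chromosome 11, 106780355 to 106789185) was marked in neither library. A peak list over the start of the edited gene does not check the deletion.

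Among genes with a listed start, Vegfa had the most wild-type cover of those marked in the wild type alone. Vegfa, the vascular endothelial growth factor (gene ID 22339, chromosome 17, 46016993 to 46032377), had 3786 bp of its 4000 bp window under wild-type peaks and 0 bp under knockout peaks. Wild-type peaks of 1280, 2666 and 1793 bp followed each other across its start, over a RYBP peak of 3162 bp, and no knockout peak lay within 15 kb of the start. The promoter printed above lies inside the peak of 2666 bp. Pbx2, a homeodomain cofactor that the symbol lists did not hold, had 3697 bp in the wild type, and the nearest knockout peak lay at -6059 to -5491 bp from its start. Ninj1, a protein of membrane rupture in dying cells, had 3679 bp, with RYBP over 1662 bp. Fkbp6, a chaperone needed for male meiosis, had 3572 bp under the same peaks as its neighbour Trim50.

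The other genes of this class came from many functions. Prr22 had 3570 bp, Cend1, a neuronal differentiation factor, 3554 bp, Phf24 3427 bp, Ttbk1, a tau kinase, 3351 bp, Emp3 3228 bp and Klc3, a kinesin light chain, 3202 bp. RYBP was found at Emp3 (1432 bp) and at none of Prr22, Cend1, Phf24, Ttbk1 and Klc3. Where the strand is not listed and both ends were searched, the longest covers were at Grina (5394 bp), Sds, serine dehydratase (4938 bp), and Sctr, the secretin receptor (4538 bp). At Sds 5 wild-type peaks touched the windows and no knockout peak lay within 15 kb. Sds and its neighbour Sdsl share part of this run of peaks.

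In the knockout alone the widest case was Sema5b, a semaphorin that guides axons (gene ID 20357, chromosome 16, 35541154 to 35664261). A knockout domain of 14085 bp ran from -10630 to 3454 bp relative to the start and filled the 4000 bp window, and the wild type had 0 bp there. The nearest wild-type peak began 13847 bp inside the gene. RYBP covered 3308 bp of the window in wild-type cells, so the start bore RYBP where no wild-type H2AK119ub peak was listed. Asic2, an acid-sensing sodium channel (gene ID 11418, chromosome 11, 80880163 to 81968396), had a single knockout peak of 2588 bp over its start, with neither a wild-type peak nor RYBP within 15 kb of the start. Over the whole gene with 2 kb on either side the sign was the opposite at both, with a difference of knockout minus wild type of -6062 bp at Sema5b and -2013 bp at Asic2.

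Pnpla5, a lipase of the patatin family on chromosome 15, had 2932 bp in the knockout list and 0 bp in the other, though wild-type peaks lay from 2321 bp inside the gene onward. Elsewhere on chromosome 15, the keratin gene Krt90 had 2481 bp and Krt5, a keratin of basal epithelium, 2218 bp in the knockout alone, while Krt79 had 2260 bp in the wild type alone. The family of keratins, claudins and junction genes had 7 members in the knockout alone and 8 in the wild type alone. Mag, a myelin glycoprotein, had 2326 bp in the knockout list, and Cldn11, a claudin of myelin, 1935 bp, again with 0 bp in the other. Sema6d (2052 bp) and Mpp2 (2026 bp) carried RYBP in the wild type, and Mag, Cldn11, Krt5 and Krt90 did not.

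Some starts were marked in both lists through a remnant. Chrna4, a nicotinic receptor subunit, had 3335 bp of its window under wild-type peaks and 30 bp under knockout peaks. A wild-type domain of 15857 bp reached from 321 to 16177 bp inside the gene. In the knockout 5 peaks of 781 to 3108 bp stood in its place, and the first began 1970 bp inside the gene. Pard6b, a cell polarity protein, went from 2861 to 23 bp, and its RYBP peak of 1796 bp lay over the start that the knockout list left out. At Bdkrb2, a bradykinin receptor, the cover went from 3705 to 459 bp. At Smug1, a uracil DNA glycosylase, it was 3918 and 307 bp.

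Longer cover in the knockout was less common. Pmp22, a protein of peripheral myelin, had 819 bp under wild-type and 3449 bp under knockout peaks, and a knockout peak of 1660 bp spanned the start, where the first wild-type peak began 1181 bp into the gene. Mlc1 and Mov10l1, which share a start region on chromosome 15, had 381 and 578 bp in the wild type against 3148 and 3345 bp in the knockout, all from a knockout peak of 3762 bp. Insm2, a neuroendocrine zinc finger factor, had 1110 and 3356 bp, and Robo3, an axon guidance receptor, 1087 and 2902 bp.

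Boundaries were read from the 6374 pairs in which 1 wild-type and 1 knockout peak overlapped each other and no further peak. The knockout edge lay inside the wild-type edge by a median of 142 bp on the left and 144 bp on the right, and the quartiles over all edges ran from 71 bp outside to 518 bp inside. Both edges were inward in 2670 pairs (41.9%, 40.7 to 43.1) and both outward in 450 (7.06%, 6.46 to 7.71). The knockout peak was the narrower in 77.5% of pairs, and the median ratio of widths was 0.76. On every one of the 17 chromosomes the median edge was inward, from 50 to 188 bp, and the ratio was between 0.71 and 0.89, with chromosome 15 the nearest to 1.

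Edges moved further in pairs with a wide wild-type peak. In 4 classes of equal size by wild-type width, both edges were inward in 18.0%, 36.5%, 50.8% and 62.4% of pairs, from the narrowest class to the widest. The order turned round when the same pairs were sorted by knockout width, with both edges inward in 52.0% of the narrowest class and 32.9% of the widest. The trend with width therefore depends on which library is used to sort. In each of these 8 groups the median edge was inward, by 17 to 382 bp under wild-type widths and by 51 to 240 bp under knockout widths, and pairs with both edges inward outnumbered those with both outward.

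**Figure D3:**
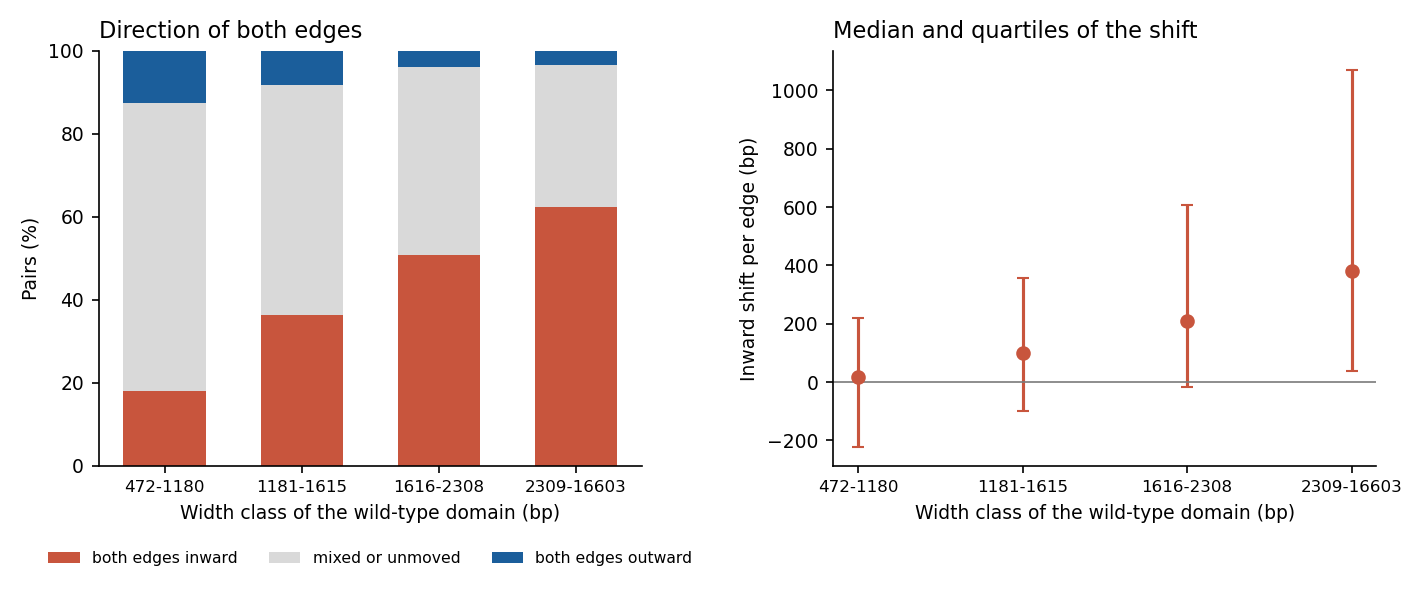
Pairs of 1 wild-type and 1 knockout peak in 4 classes of equal size by wild-type width (x axis, bp). On the left, the percentage of pairs with both edges inward, both outward or neither; on the right, the median inward shift per edge in bp with its quartiles, which goes from 17 bp in the narrowest to 382 bp in the widest class and would have the other order if pairs were sorted by knockout width.

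The retreat was found in all kinds of places. The median width ratio was 0.78 for pairs over a listed gene start, 0.77 inside genes without one and 0.74 between genes. It was 0.85 for the 58 pairs over the start of a developmental gene and 0.76 for the 385 over another start. Pairs with RYBP had a ratio of 0.82 and a median inward shift of 116 bp per edge, against 0.73 and 157 bp without. Pairs with RYBP were also wider in the wild type, with a median of 1951 against 1472 bp.

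Of 495 pairs in which either peak held exactly 1 listed start between them, the start lay in both peaks in 265 (53.5%, 49.1 to 57.9). It lay in the wild-type peak alone in 163 and in the knockout peak alone in 67. In these pairs the median inward shift was 159 bp on the upstream side and 120 bp on the downstream side, with quartiles that overlapped widely (54 bp outward to 584 bp inward, and 81 bp outward to 504 bp inward).

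Named by the largest shift of 1 edge, the most trimmed domain lay at Uvssa, a factor of transcription-coupled repair on chromosome 5. It shrank from 16603 to 1406 bp, having lost 8264 bp on the left and 6933 bp on the right. At Ptpn14, a phosphatase of the Hippo pathway, 6202 bp became 1009 bp, with the right edge moved in by 5109 bp and the left by 84 bp. At Muc5b, an airway mucin, 6081 bp became 506 bp, and the remaining peak lay outside the 2 kb windows, so the gene counted as marked in the wild type alone. At Th, tyrosine hydroxylase, the left edge moved in by 4777 bp and the right by 229 bp. Dusp8, a MAP kinase phosphatase, lost 4428 bp on the left and 283 bp on the right, and Prdm16, a regulator of brown fat, lost 4660 bp on the left while its right edge reached 367 bp further out. In these domains other than that at Uvssa, 1 edge moved far more than the other, which a ranking by the largest shift of 1 edge favours.

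The largest advances were smaller. At Nt5e, an enzyme that makes adenosine, 795 bp became 3970 bp with 2867 bp added on the right. At Rgma, a guidance molecule, 1203 bp became 4175 bp with 2847 bp added on the left. At Nxph3, a neurexophilin, 2603 bp became 5397 bp, and at Map6, a microtubule stabiliser, 1392 bp became 3555 bp.

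Splitting was counted where 2 or more knockout peaks overlapped 1 wild-type domain. This held for 2109 wild-type domains, 21.6% of the 9744 with any knockout peak (20.8 to 22.5). The reverse, a knockout domain over 2 or more wild-type peaks, held for 976, 8.51% of 11474 (8.01 to 9.03). Of the 2109, 1666 were split into 2, 323 into 3 and 120 into 4 or more, with a maximum of 9. Most breaks were short, with a median of 291 bp of inner gap a domain, and 669 domains had a gap of at least 500 bp and 275 one of at least 1 kb. In the reverse direction 112 and 24 domains had gaps of these lengths, so the excess of wild-type domains was greater among long gaps.

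Splitting was commonest in wide domains, and the 2 directions parted with width. Below 1 kb the shares were 3.34% of wild-type domains (2.44 to 4.55) and 3.28% of knockout domains (2.78 to 3.88). At 3 to 5 kb they were 45.2% (42.6 to 47.8) and 25.6% (22.5 to 29.0), at 5 to 10 kb 74.6% (71.1 to 77.9) and 33.3% (27.7 to 39.5), and from 10 kb 87.5% (80.4 to 92.3) and 30.3% (17.4 to 47.3). With gaps of at least 500 bp, 56 of 120 wild-type domains of 10 kb or more were split and 0 of 33 knockout domains, for which the interval reaches 10.4%. Nearly all of these widest wild-type domains, 99.2%, had at least 1 knockout peak, so they were mostly broken up and not missing from the knockout list.

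**Figure D4:**
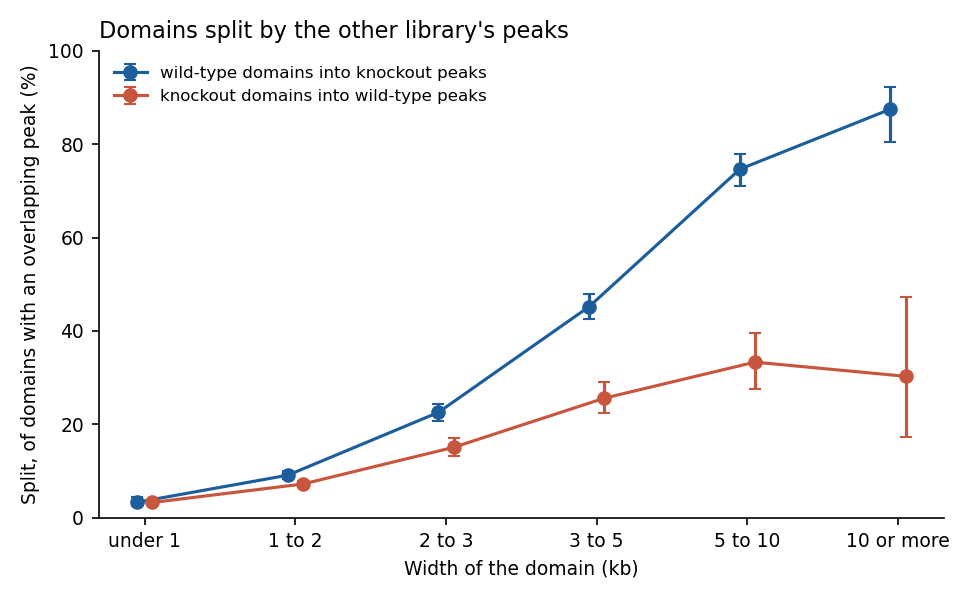
Percentage of domains with an overlapping peak in the other library that were split into 2 or more of its peaks (y axis), by domain width in kb (x axis), for wild-type domains into knockout peaks (blue) and knockout domains into wild-type peaks (red). Points are shares and lines Wilson 95% intervals; both start near 3.3% and end at 87.5% and 30.3%.

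The longest inner gap total was found at Krt1, a keratin of differentiated epidermis on chromosome 15, where knockout peaks covered 15.3% of a wild-type domain of 10516 bp. The overlapping knockout peaks were 3, of 903, 810 and 736 bp, with 5268 and 2142 bp between them. Only 1608 bp of these peaks lay inside the domain, and most of the peak of 903 bp lay outside it. At Igsf21, a synaptic adhesion protein on chromosome 4, a domain of 14669 bp was listed as 9 knockout peaks that covered 60.9% of it. At Grm4, a metabotropic glutamate receptor, 9724 bp became 4 peaks (41.5% covered), and at Tbc1d16, a Rab regulator, 9891 bp became 5 peaks (50.3% covered). A domain of 11118 bp over Spib, a B-cell factor, and Pold1, a DNA polymerase subunit, became 3 peaks (35.0% covered).

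Of the 12 domains with the longest gaps, 5 lay on chromosome 7 between Lsp1 and Slc22a18, which holds an imprinted cluster, and 2 lay on chromosome 5 between Uvssa and Fam53a. Both regions were picked out after their values had been seen. In the first, 485 kb was covered in the wild type and 253 kb in the knockout, a ratio of 0.52 near the 0.57 of chromosome 7. Its peaks of 5 kb or more numbered 29 and 8. Wide peaks were also fewer in the knockout over all chromosomes used. Those of 5 to 10 kb numbered 633 and 240, and those from 10 kb 121 and 34. Kcnq1, a potassium channel gene, carried 3 of the 12. Its widest, of 37272 bp, was listed as 9 knockout peaks that covered 82.9% of it, and those of 24269 and 19715 bp as 8 and 7 peaks covering 78.9% and 69.6%. At the gene ends themselves the cover was 8000 bp (wild type) and 7990 bp (knockout) for Kcnq1, and 6576 and 6602 bp for Cdkn1c, a cell cycle inhibitor of the same cluster. At Slc22a18, where 12368 bp was split into 6 peaks, the start window had 2804 and 892 bp. In the region of Uvssa and Fam53a 143 kb was covered in the wild type and 42.9 kb in the knockout, a ratio of 0.30 beside 0.53 on chromosome 5.

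Inner gaps of split wild-type domains held 33 listed gene starts, or 29.0 per Mb. The density was 34.8 per Mb in DNA marked in both lists, 36.5 at wild-type edges and 19.7 in wild-type peaks without a counterpart. Starts were thus no denser in the gaps than in DNA marked in both. The longest gap with a start, of 2496 bp, held that of Ehbp1l1 in a domain of 7627 bp, followed by Matk, a kinase of blood cells (1979 bp), Sned1 (1774 bp) and Zfp316 (1585 bp). Aebp1, a regulator of matrix and fat cells, had its start in a gap of 1248 bp within a domain of 12088 bp. Of the 33, 3 belonged to the developmental lists, beside 364 of the 3873 wild-type-marked genes, namely T, the mesoderm regulator brachyury (207 bp), Prdm13 (178 bp) and Tlx3 (133 bp), all in short gaps.

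Base by base, 16.0 Mb of wild-type-marked DNA (43.5%) was marked in the knockout too. Peaks with no counterpart held 13.3 Mb (36.2%), edges of domains with one held 6.33 Mb (17.2%), and inner gaps 1.14 Mb (3.09%). In the knockout 4.95 Mb (21.5%) lay in peaks without a counterpart and 1.88 Mb (8.15%) at edges. By length, whole missing peaks thus made up more of the difference than edges, and edges more than splits.

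RYBP of the wild type, which did not enter these classes, covered 22.8% of the DNA marked in both. It covered 9.65% of the wild-type inner gaps, 8.95% of the wild-type edges and 5.61% of the wild-type peaks without a counterpart. Of the DNA marked in the knockout alone, it covered 13.7% of the edges and 7.10% of the peaks without a counterpart. At genes, RYBP was found in the window of 75.6% of those marked in both (74.0 to 77.2), 49.7% of those of the wild type alone (46.9 to 52.6), 56.5% of those of the knockout alone (52.2 to 60.8) and 22.2% of those marked in neither (21.6 to 22.9). The intervals of the wild type alone and the knockout alone overlapped slightly, and both lay between those of the other classes.

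**Figure D5:**
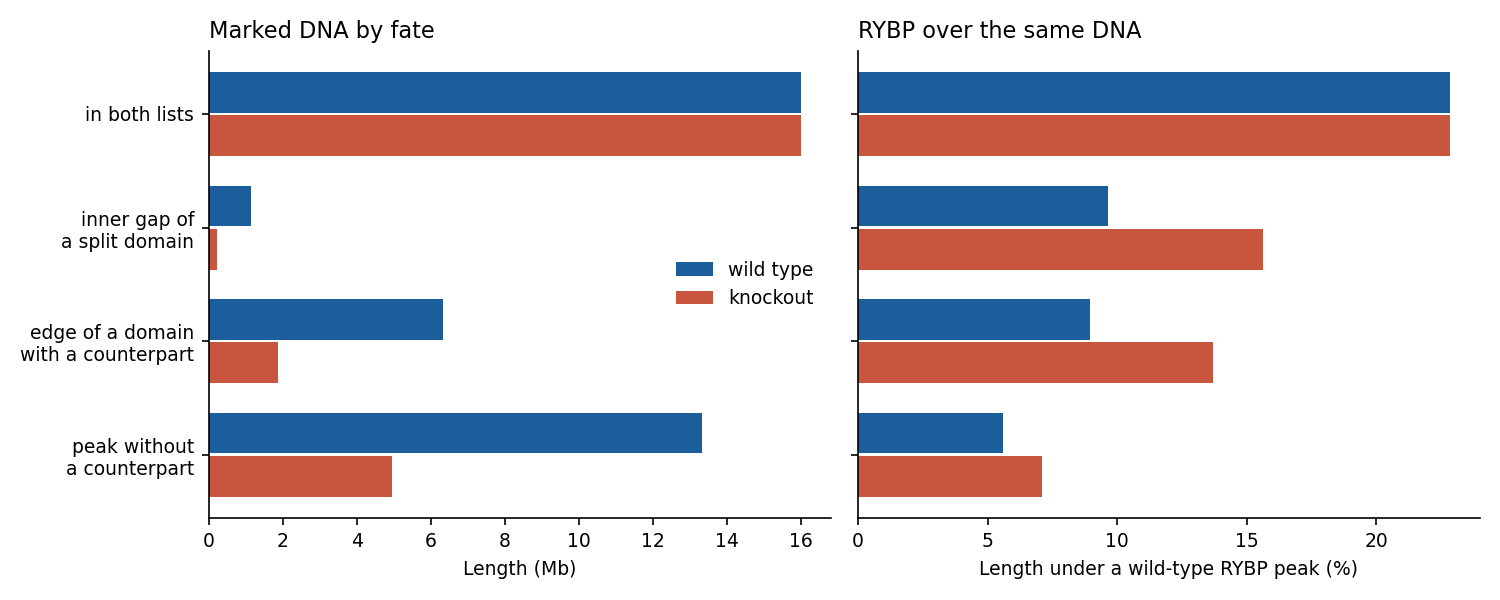
Length of H2AK119ub-marked DNA in Mb (left) and the percentage of that length under a wild-type RYBP peak (right), for DNA in both lists, inner gaps of split domains, edges of domains with a counterpart, and peaks without one, in the wild type (blue) and the knockout (red). RYBP covers 22.8% of the DNA in both lists and 5.61% and 7.10% of the peaks without a counterpart.

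Promoter composition followed a similar order. The median CpG observed over expected ratio was 0.69 for genes marked in both (1318 promoters), 0.66 for the knockout alone (286), 0.60 for the wild type alone (640) and 0.52 for neither (9134). The quartiles were wide, from 0.44 to 0.84 in both and from 0.32 to 0.78 in the wild type alone. Among wild-type-marked genes outside the developmental lists, 68.2% with a ratio of at least 0.6 were marked in the knockout (65.2 to 71.0), against 60.3% below it (56.9 to 63.7). Their median covers in the wild type were 1728 and 1628 bp.

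For the 10146 genes with a listed strand whose start and far end windows could be read apart, the far end had the lower overlap. At the start 1917 genes were marked in the wild type and 68.2% of these in the knockout (66.1 to 70.3). At the far end 1137 were marked and 55.3% of these in the knockout (52.4 to 58.2). The median wild-type cover of marked genes was also smaller there, 1376 against 1682 bp. The summed cover in the knockout was 0.72 times that of the wild type at starts and 0.53 times at far ends.

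The chromosomes differed in how much of the mark the knockout list held. The ratio of covered length was lowest on chromosome 10 (0.52) and highest on chromosome 15 (0.84), and on chromosome 16 the knockout alone marked 27 genes against 22 in the wild type alone, the one chromosome where gains outnumbered losses. Chromosome 13 had 19 of each. Chromosome 15 held 4.20% of the genes tested and 7.91% of those marked in the knockout alone (5.86 to 10.6). The strand is not listed for 45.6% of its genes, beside 100% on chromosome 18 and 12.5% to 21.0% elsewhere, and the part of the longer windows in this was not tested. Chromosome 17 had the lowest share of wild-type-marked genes marked in the knockout (51.7%, 45.3 to 58.0) and chromosome 13 the highest (81.2%, 72.5 to 87.6).

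Markers of the cell types the cultures could hold were read as marked or not, since peak lists hold no expression. Of 8 embryonic stem cell markers only 5 were tested, since Nanog, Zfp42 and Dppa3 lie on the chromosomes left out. Of the 5, Pou5f1, Sox2, Klf4 and Tfcp2l1 were marked in neither list. Esrrb, a factor of naive pluripotency, had 1983 bp of wild-type and 0 bp of knockout cover. Of 7 feeder fibroblast markers, Col1a1, Pdgfrb and Thy1 were marked in both lists, summing to 13793 bp of wild-type and 8995 bp of knockout cover. Of 7 trophectoderm markers 6 were marked in both lists, and of 6 primitive endoderm markers 5. Among them Cdx2 had 4000 bp in each list, and Sox7 (3979 and 3994 bp), Pdgfra (4000 and 3947 bp) and Gata6 (3822 and 3463 bp) differed little between wild type and knockout. Gata3 had 3290 and 1371 bp and Gata4 3406 and 1208 bp, while Tfap2c had more in the knockout, with 1596 and 2252 bp.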

How the data were processed

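Per the submitters' processing notes, Bowtie2 2.2.5 and MACS 1.4 were used with mm10. What each tool did, which threshold set a peak and whether inputs served as controls: not given in the sources used here. As deposited by the authors, there is 1 peak list per library with chromosome, start and end, and peaks were called per library. The deposited score column holds 0 in every line and was not used. Depth is unknown, so a library with fewer reads could give fewer and narrower peaks.

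Groups were taken from sample titles. Peaks were intersected with a minimum overlap of 1 bp, in Python 3.11.15 with pandas 2.3.3. Chromosomes 6 and 8 were left out as the comparison's definition requires. Genes are the RefSeq protein-coding genes of GRCm38.p6, the assembly called mm10 by genome browsers. Strand and promoters came from the RefSeq promoter table, which lists 14780 of the 18496 genes, with the strand matched by gene ID. For CpG content, 11378 promoters whose start lay within 100 bp of the gene's start were used. Families are symbol patterns, and neighbouring members can share 1 peak. Some wrong symbol matches were removed after values had been seen, but H2-Ke6 stayed in the immune family.

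Genes were named by covered length within each class, leaving out predicted genes, up to 3 per family and class, and domains by largest edge shift, inner gap total or number of fragments. The ranking over genes with a listed strand, the pooled families, the named regions, the sorting by knockout width and genes picked for their function were chosen after values had been seen. Members and lists were chosen with earlier results of these data known. No test between genotypes was possible, and shares have Wilson intervals at 95%. The scripts were tested on simulated peak lists. Alternatives were other windows, peak filters, overlap rules, merging, and gene or chromosome sets. A gene that the naming rule took is not reported here.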

Additional observations from a re-analysis of the deposited data

How the results depend on the processing

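No paired analysis was possible because each genotype has 1 library, and for the same reason no replicate could be left out. Retention stayed higher for developmental genes than outside under each alternative. The developmental share of the wild-type-alone genes was above the 2.73% of all genes with 1 kb windows and with peaks of at least 1 kb (2.79%). That background also counts genes not marked in the wild type. With 1 kb windows 66.2% of wild-type-marked genes were marked in the knockout (developmental 89.0%, outside 63.6%, developmental share of the wild-type-alone genes 3.37%). With 5 kb windows it was 71.2% (outside 69.2%), over whole genes 73.4% (outside 71.7%) and over genes with a listed strand, an alternative chosen after seeing the data, 67.7%. With peaks of at least 1 kb it was 63.5% (developmental 90.1%, outside 60.5%), 235 genes were marked in the knockout alone, the covered length ratio was 0.52, 42.2% of wild-type and 80.5% of knockout peaks overlapped the other list, and 1096 wild-type and 650 knockout domains were split. With equal numbers of the widest peaks retention was 72.4% (outside 70.0%), 53.4% and 64.1% of peaks overlapped, the median edge was 158 bp inward, and 43.8% of pairs had both edges inward and 6.30% both outward. When 50% of the peak had to overlap, 30.5% of wild-type and 60.2% of knockout peaks did, and for pairs overlapping by that share of each peak the values were 100.0 bp, 39.8% and 9.60%. Merging within 2 kb gave 251 bp, 44.4% and 10.1%, with 634 and 171 split domains. Gaps of at least 500 bp left 669 and 112 split domains, gaps of at least 1 kb 275 and 24, and fragments lying to at least 50% inside the domain left 208 knockout domains. On all autosomes 49.0% of wild-type peaks overlapped a knockout peak and 8.20% of pairs had both edges outward; without chromosome 15, chosen after seeing the data, the first was 46.7%. The cause of these changes was not tested. Of 680 values for 85 named genes, 624 kept their sign and class. Over whole genes the sign turned at Asic2 (-2013 bp), Kcnk3 (-805 bp), Sema5b (-6062 bp) and Zhx2 (-1808 bp). Depth is unknown, so peaks below detection in 1 library cannot be told from absent ones.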
